A study of Mus musculus with 24 samples.

Results

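Cochlear organoids are clusters of epithelial cells grown in culture from the cochlea of newborn mice. Organoids given tumour necrosis factor (TNF, a cytokine that starts inflammation) were compared with control organoids over all genes of the organoid count table, from whole-transcriptome RNA sequencing. The comparison uses 6 of the 24 libraries of the study, 3 of TNF organoids and 3 of control organoids. A further 6 organoid libraries, 3 with TNF and a lentiviral knockdown of the splicing regulator RBM25 and 3 with the knockdown alone, served to share the estimate of spread and to ask whether the TNF effect was the same there. The titles of these 6 libraries speak of a knockout and their protocol of a knockdown, and the protocol is followed here. The remaining 12 libraries, of inner ear tissue from adult mice, were not used. By the labels, both TNF and control organoids had a wild-type genotype, and neither group is labelled as having received a lentivirus. Both came from cochlear epithelia of pups aged 1 to 2 days. They were expanded in Matrigel with EGF, bFGF, IGF and CHIR99021 (an inhibitor of the kinase GSK3 that activates Wnt signalling), were differentiated with CHIR99021 and LY411575 (an inhibitor of gamma-secretase that blocks Notch signalling), and were then kept in a low dose of EGF and bFGF. The sources used here give neither the strain and number of the pups nor the dose, timing and duration of TNF. Nothing says that the 3 libraries of a group came from separate cultures, so p-values rest on a spread between libraries that may be technical alone.

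TNF acts through the receptors Tnfrsf1a, which most cells carry, and Tnfrsf1b, which is found on fewer cell types. The bound receptor gathers adaptors, kinases and ubiquitin ligases that activate the IKK complex, which marks the inhibitor encoded by Nfkbia for degradation and frees NF-kB transcription factors to enter the nucleus. NF-kB then switches on genes of chemokines, adhesion molecules and antigen presentation, and also its own inhibitors, which end the signal. In the cochlea, TNF is known as an early cytokine after noise, ototoxic drugs and infection. The cochlear epithelium is built of hair cells, which sense sound, and of supporting cells, which secrete the gel of the tectorial membrane and take up potassium.

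The 6 libraries held 35286989 to 36435451 counts, and 15888 of the 25190 genes in the table had enough counts to be tested. The biological coefficient of variation over the organoid libraries was 8.04%. Mitochondrially encoded genes took 3.22 to 3.48% of the counts in TNF organoids, against 2.77 to 2.94% in control organoids; their part in the results was not tested. One library stood apart from its group. In TNF replicate 1, 11 genes were more than 5-fold above both other TNF libraries and above 2 CPM (counts scaled to the TMM library size), among them the collagen genes Col1a1 and Col3a1, whereas no gene was so in the other TNF libraries and 1 gene in all was so in the control libraries. Epithelial identity was read from FPKM, which scales counts to gene length and so allows levels of different genes to be compared. Epcam, an adhesion protein of epithelial cells, stood at 432 ± 25.6 FPKM in TNF organoids and 439 ± 7.77 FPKM in control organoids (SD, n = 3 each). Gjb2, the connexin of cochlear supporting cells, stood at 249 ± 33.2 FPKM in TNF organoids and 238 ± 2.73 FPKM in control organoids. The hair cell transcription factor gene Pou4f3 was detected at 6.16 ± 0.845 FPKM in TNF organoids and 6.11 ± 0.393 FPKM in control organoids, and the hair cell motor gene Slc26a5 at 0.246 ± 0.0240 FPKM in TNF organoids and 0.364 ± 0.0694 FPKM in control organoids.

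TNF changed the level of many genes. Of 15888 genes, 3706 (23.3%) were higher and 3840 (24.2%) were lower in TNF organoids, 47.5% in either direction, by edgeR's quasi-likelihood test at a Benjamini-Hochberg adjusted p under 0.05; all adjusted p-values below come from this test. Most of these changes were small: 722 genes (4.54%) were at least 2-fold higher and 680 (4.28%) at least 2-fold lower, and the median log2 fold change over all genes tested was -0.02. The 3 TNF and the 3 control libraries did not overlap for 4419 genes (27.8%) that were higher and 4709 (29.6%) that were lower. A share of called genes in a gene list is therefore read beside 23.3% and 24.2%, and list medians beside -0.02. Log2 fold changes are TNF over control and are fitted by edgeR, which draws them towards 0 at low counts.

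**Figure D1:**
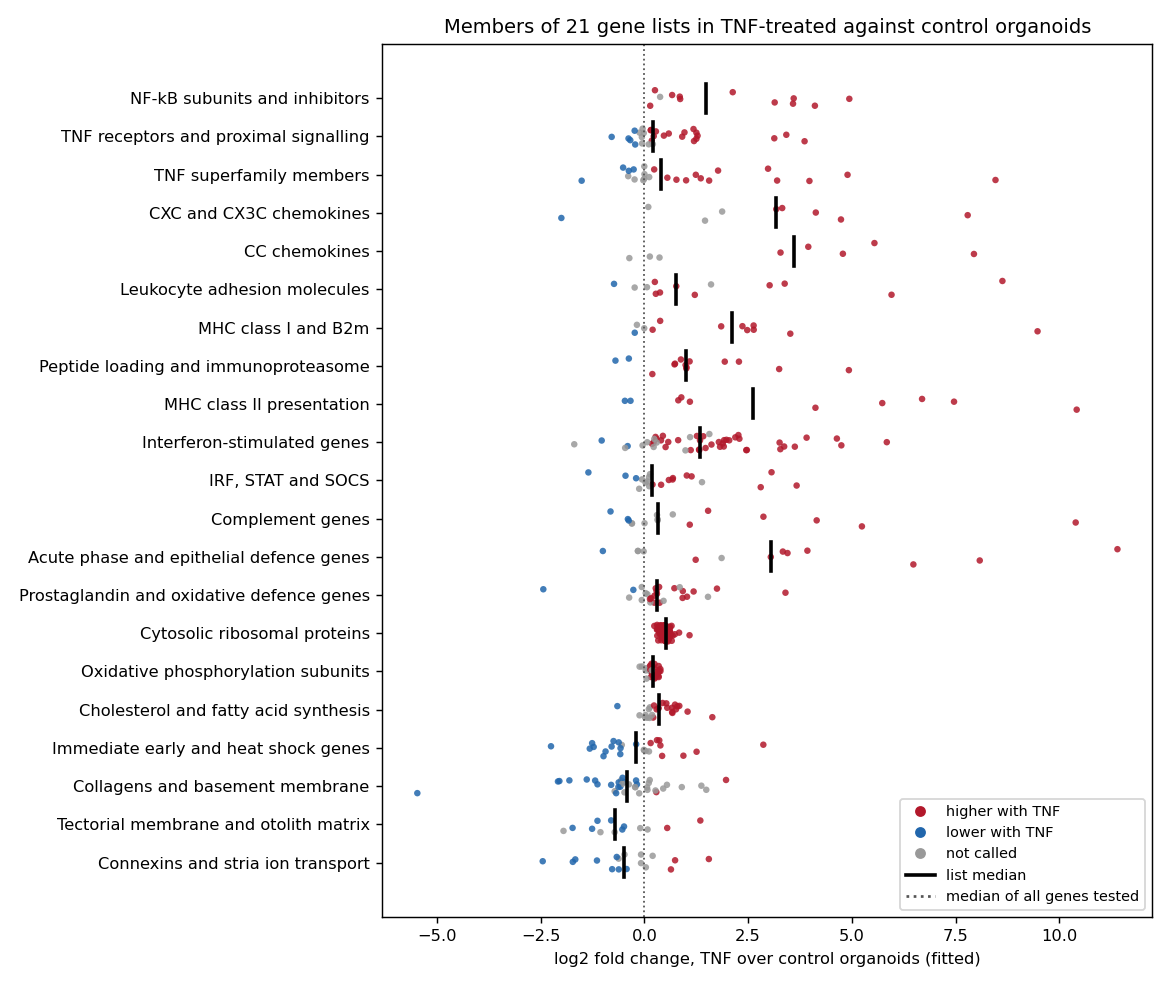
Log2 fold change, TNF over control organoids, of each tested member of 21 gene lists (points; red higher, blue lower, grey not called at an adjusted p under 0.05), with the list median as a black bar and the median of all genes tested as a dotted line. The medians of the NF-kB, chemokine, MHC and interferon lists lie to the right of the dotted line, and those of the collagen, tectorial membrane and stria lists lie to its left.

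The 2 TNF receptor genes differed in direction. Tnfrsf1a was lower, with 72.2, 75.4 and 74.8 CPM in TNF organoids, against 96.4, 92.8 and 101 CPM in control organoids (log2 fold change -0.38, SE 0.06, adjusted p = 6.51e-05). Tnfrsf1b was higher, with 9.33, 8.11 and 7.40 CPM in TNF organoids, against 3.36, 3.87 and 3.62 CPM in control organoids (log2 fold change 1.19, SE 0.15, adjusted p = 2.94e-06). The groups did not overlap for either gene, and Tnfrsf1a remained the more abundant receptor transcript per length, at 34.1 ± 0.687 FPKM in TNF organoids and 43.5 ± 1.58 FPKM in control organoids, where Tnfrsf1b had 1.67 ± 0.199 FPKM in TNF organoids and 0.712 ± 0.0510 FPKM in control organoids. Among the 29 tested genes of receptors and proximal signalling, 17 were higher and 5 lower (median log2 fold change 0.20). The rises were largest for Birc3, a ubiquitin ligase of the receptor complex, with 119, 121 and 114 CPM with TNF, against 8.17, 7.77 and 8.45 CPM in control (log2 fold change 3.86, SE 0.07, adjusted p = 5.79e-18). Tnip1, which dampens NF-kB signalling together with the protein of Tnfaip3, stood at 289 ± 20.0 CPM with TNF and 33.0 ± 0.857 CPM in control (log2 fold change 3.13, SE 0.06, adjusted p = 5.79e-18). Ikbke, a kinase related to the IKK complex, stood at 103 ± 7.48 CPM with TNF and 9.61 ± 1.36 CPM in control (log2 fold change 3.42, SE 0.11, adjusted p = 2.83e-12). The adaptor Traf3 had a log2 fold change 1.18 (adjusted p = 1.7e-12), whereas the adaptor Traf1 was lower (log2 fold change -0.79, adjusted p = 0.000108). The core kinase gene Ikbkb rose by little (log2 fold change 0.15, adjusted p = 0.0121), and the other core kinase gene, Chuk, stood at 81.4 ± 3.17 CPM with TNF and 82.4 ± 2.79 CPM in control and did not pass. Exons of Ikbke overlap those of 2 predicted genes on the other strand, so its count is uncertain in these unstranded libraries.

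Genes of NF-kB itself, and of the proteins that hold it back, rose almost throughout. Of the 12 genes tested, 11 were higher and none was lower, and the median log2 fold change was 1.49. Nfkbia, which encodes the inhibitor IkB-alpha, had 622, 623 and 612 CPM in TNF organoids, against 35.7, 37.1 and 34.9 CPM in control organoids (log2 fold change 4.11, SE 0.05, adjusted p = 1.72e-20). Tnfaip3, which encodes the deubiquitinating enzyme A20, had 206, 200.1 and 194 CPM in TNF organoids, against 5.94, 5.89 and 7.74 CPM in control organoids (log2 fold change 4.94, SE 0.11, adjusted p = 3.67e-14). Within each gene the 3 TNF libraries lay close together and far above the controls. Nfkbie, another inhibitor, stood at 57.0 ± 3.43 CPM with TNF and 4.76 ± 0.711 CPM in control (log2 fold change 3.58, SE 0.09, adjusted p = 3.1e-16). Relb, a subunit of the non-canonical dimer, stood at 103 ± 3.48 CPM with TNF and 11.7 ± 1.09 CPM in control (log2 fold change 3.14, SE 0.08, adjusted p = 5.25e-16), and its partner gene Nfkb2 had a log2 fold change 2.13 (adjusted p = 1.59e-16). Bcl3, a nuclear cofactor of NF-kB, had a log2 fold change 3.60. The canonical subunit gene Rela rose less (log2 fold change 0.25, adjusted p = 0.0023). Nfkbid, another inhibitor, was the member that did not pass, at 2.39 ± 0.371 CPM with TNF and 1.84 ± 0.607 CPM in control. The counts of Nfkb2 and Bcl3 are uncertain, since their exons overlap those of Psd and of a predicted gene on the other strand.

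Promoter windows are shown for genes that rose in the NF-kB, chemokine, adhesion and MHC class I lists and that hold a match to the NF-kB consensus, in order of log2 fold change. Each is the 300 bases of RefSeq (GRCm38.p6) from 250 before to 50 after the transcription start, written 5′ to 3′ on the gene's strand, and the capitals mark the matches on either strand. H2-M2 (minus strand, chr17:37483505-37483804) encodes a non-classical MHC class I heavy chain, Madcam1 (plus strand, chr10:79664309-79664608) an adhesion molecule for lymphocytes, Ccl20 (plus strand, chr1:83116516-83116815) a chemokine for dendritic cells and lymphocytes, and Cxcl10 (minus strand, chr5:92348840-92349139) a chemokine for T cells. Tnfaip3 (minus strand, chr10:19015361-19015660) and Nfkbia (minus strand, chr12:55492598-55492897) are the inhibitor genes described above.
H2-M2: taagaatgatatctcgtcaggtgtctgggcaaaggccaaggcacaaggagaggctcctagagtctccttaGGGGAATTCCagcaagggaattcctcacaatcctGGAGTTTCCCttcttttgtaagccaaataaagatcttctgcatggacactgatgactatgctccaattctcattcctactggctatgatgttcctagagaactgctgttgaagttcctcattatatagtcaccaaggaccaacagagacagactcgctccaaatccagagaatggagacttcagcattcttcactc
Madcam1: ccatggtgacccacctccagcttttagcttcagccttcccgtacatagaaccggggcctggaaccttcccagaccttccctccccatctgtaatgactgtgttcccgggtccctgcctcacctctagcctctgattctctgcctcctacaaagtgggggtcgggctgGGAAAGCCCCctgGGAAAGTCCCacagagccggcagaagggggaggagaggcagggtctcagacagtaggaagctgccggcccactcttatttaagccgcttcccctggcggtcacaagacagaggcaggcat
Ccl20: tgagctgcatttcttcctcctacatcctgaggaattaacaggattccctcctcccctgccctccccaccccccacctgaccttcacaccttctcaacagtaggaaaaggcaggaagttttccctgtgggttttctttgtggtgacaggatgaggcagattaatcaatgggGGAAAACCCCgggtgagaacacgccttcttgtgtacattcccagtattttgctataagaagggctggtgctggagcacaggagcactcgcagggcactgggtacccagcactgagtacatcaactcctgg
Cxcl10: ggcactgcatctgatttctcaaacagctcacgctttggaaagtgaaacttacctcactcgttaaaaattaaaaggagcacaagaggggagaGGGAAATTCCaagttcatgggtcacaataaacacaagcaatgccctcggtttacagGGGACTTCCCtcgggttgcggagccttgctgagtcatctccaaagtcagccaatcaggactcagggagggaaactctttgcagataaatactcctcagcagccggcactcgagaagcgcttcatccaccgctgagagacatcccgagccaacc
Tnfaip3: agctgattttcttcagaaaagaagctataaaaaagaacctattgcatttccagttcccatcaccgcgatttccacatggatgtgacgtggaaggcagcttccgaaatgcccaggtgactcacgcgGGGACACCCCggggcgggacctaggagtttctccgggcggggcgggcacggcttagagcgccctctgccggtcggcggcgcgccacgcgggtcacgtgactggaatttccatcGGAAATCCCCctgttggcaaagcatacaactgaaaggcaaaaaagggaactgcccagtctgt
Nfkbia: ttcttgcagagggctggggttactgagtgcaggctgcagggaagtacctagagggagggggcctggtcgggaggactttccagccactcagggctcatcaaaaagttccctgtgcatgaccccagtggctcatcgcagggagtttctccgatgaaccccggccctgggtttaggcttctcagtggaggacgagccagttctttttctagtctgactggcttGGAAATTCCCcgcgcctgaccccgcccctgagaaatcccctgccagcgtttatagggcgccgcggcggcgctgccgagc
The windows of H2-M2, Madcam1, Cxcl10 and Tnfaip3 hold 2 matches each, and those of Ccl20 and Nfkbia hold 1. The window of Cxcl10 also holds 1 match to the interferon-stimulated response element TTTCNNTTTC. The start nearest to a match is that of Tnfaip3, whose second match begins 12 bases before it, and in H2-M2 the first match begins 180 bases before the start. Tnfaip3 has 2 RefSeq windows, and only 1 of them, the one shown, holds the consensus. Among all tested genes with a RefSeq window, 784 of 12395 (6.33%) had the NF-kB consensus. The share was 79 of 524 (15.1%) among genes at least 2-fold higher with TNF and 29 of 498 (5.82%) among genes at least 2-fold lower. It was 6 of 8 for the genes of the NF-kB list that rose, 7 of 8 for those of MHC class I, and 0 of 9 for those of peptide loading and the immunoproteasome. For the genes that rose in the other lists it was 2 of 3 for CXC and CX3C chemokines and 1 of 1 for CC chemokines. It was 1 of 8 for adhesion molecules, the match being that of Madcam1, and 2 of 28 for interferon-stimulated genes. A match describes these letters and is neither a shown binding site nor a cause.

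Chemokine genes of both the CXC and the CC family were higher with TNF, and most of those that rose were below 1 CPM in control organoids. Of the 9 CXC and CX3C genes tested, 5 were higher and 1 was lower (median log2 fold change 3.18), and of the 8 CC genes, 5 were higher and none lower (median 3.61). Cx3cl1, a membrane-bound chemokine for monocytes and microglia, was the most abundant of those that rose, with 141, 173 and 158 CPM in TNF organoids, against 16.3, 17.6 and 18.2 CPM in control organoids (log2 fold change 3.18, SE 0.09, adjusted p = 1.33e-12). Cxcl10 had 14.6, 8.47 and 11.3 CPM in TNF organoids, against 0.0574, 0 and 0.0883 CPM in control organoids (log2 fold change 7.79, SE 0.68, adjusted p = 1.12e-05). Ccl2, the main chemokine for monocytes, had 45.5, 26.7 and 32.4 CPM in TNF organoids, against 0.258, 0.837 and 1.15 CPM in control organoids (log2 fold change 5.54, SE 0.40, adjusted p = 3.63e-06). Every TNF library lay above every control library for each of these 3 genes, and without control replicate 3 the log2 fold change of Cxcl10 was 8.48. Ccl20 had 92 counts over the TNF libraries and 0 over the controls, at least 29.4-fold higher against a floor of 3 counts over the group. Cxcl1, a chemokine for neutrophils, stood at 3.31 ± 0.647 CPM with TNF and 0.329 ± 0.137 CPM in control (log2 fold change 3.32, SE 0.40, adjusted p = 4.19e-06). Ccl7, a chemokine for monocytes, stood at 8.71 ± 2.34 CPM with TNF and 0.561 ± 0.0511 CPM in control (log2 fold change 3.95, SE 0.23, adjusted p = 1.24e-10). Cxcl16, a chemokine that is also made as a membrane protein, stood at 45.6 ± 8.56 CPM with TNF and 2.60 ± 0.303 CPM in control (log2 fold change 4.13, SE 0.20, adjusted p = 1.34e-08). Ccl5, a chemokine for T cells, stood at 1.16 ± 0.418 CPM with TNF and 0.0390 ± 0.0450 CPM in control (log2 fold change 4.78, SE 0.67, adjusted p = 1.24e-05; 6.02 without control replicate 3). Exons of Cxcl10 and Cxcl16 overlap those of Art3 and Zmynd15 on the other strand. Cxcl12, which guides stem cells and lymphocytes, went the other way, with 0.524, 0.475 and 0.389 CPM with TNF, against 1.89, 1.67 and 2.03 CPM in control (log2 fold change -2.00, SE 0.26, adjusted p = 3.06e-06).

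Few cytokine genes were measurable. Of 10 tested interleukin and colony-stimulating factor genes, 2 were higher and 1 was lower, and Il1a, Il1b and Il6 had too few counts to be tested. Csf1, the growth factor of macrophages, had 149.6, 133 and 134 CPM in TNF organoids, against 6.83, 7.57 and 7.09 CPM in control organoids (log2 fold change 4.28, SE 0.21, adjusted p = 1.68e-07). Lif, a cytokine of the interleukin 6 family, stood at 5.30 ± 0.918 CPM with TNF and 1.54 ± 0.348 CPM in control (log2 fold change 1.78, SE 0.19, adjusted p = 3.19e-07). Il33, an alarmin held in the nucleus of epithelial cells, was lower, with 42.4, 47.7 and 47.6 CPM with TNF, against 77.0, 71.8 and 78.3 CPM in control (log2 fold change -0.72, SE 0.06, adjusted p = 4.65e-09). Il18 stood at 4.00 ± 0.310 CPM with TNF and 3.02 ± 0.162 CPM in control and did not pass (adjusted p = 0.0703). Of 24 tested genes of the TNF ligand and receptor families, 13 were higher and 4 lower (median log2 fold change 0.39). Tnf itself (chr17:35199367-35202007, GRCm38.p6) had 132 counts over the 3 TNF libraries and 0 over the 3 control libraries, at least 42.2-fold higher. The other ligands that rose included Ltb, which encodes lymphotoxin beta, at 1.25 ± 0.00814 CPM with TNF and 0.0388 ± 0.0174 CPM in control (log2 fold change 4.89, SE 0.48, adjusted p = 7.45e-08). Tnfsf10, which encodes the death ligand TRAIL, stood at 6.29 ± 1.99 CPM with TNF and 0.397 ± 0.0780 CPM in control (log2 fold change 3.98, SE 0.32, adjusted p = 2.04e-08). The receptor genes Eda2r (log2 fold change 1.77, adjusted p = 3.03e-11) and Ngfr, which encodes the p75 neurotrophin receptor (log2 fold change 2.98, adjusted p = 2.61e-06), were higher as well.

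Adhesion molecules that bind leukocytes were higher in 9 of 13 tested genes and lower in 1 (median log2 fold change 0.77). Icam1, a ligand of leukocyte integrins, had 108, 129 and 123 CPM in TNF organoids, against 2.38, 1.85 and 1.56 CPM in control organoids (log2 fold change 5.95, SE 0.17, adjusted p = 7.68e-11). Vcam1, another integrin ligand, had 162, 121 and 99.6 CPM in TNF organoids, against 15.0, 15.4 and 16.8 CPM in control organoids (log2 fold change 3.02, SE 0.19, adjusted p = 1.33e-06). Madcam1, the ligand of the gut-homing integrin, had 1387 counts over the TNF libraries and 3 over the control libraries, a ratio of 443-fold (95% counting interval 151 to 2151). The integrin subunit gene Itgav rose less (log2 fold change 0.77, adjusted p = 3.28e-06). For each of the 3 ligand genes, the lowest TNF library lay well above the highest control library. Exons of Icam1, Vcam1 and Itgav overlap those of predicted genes on the other strand, so these counts are uncertain.

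**Figure D2:**
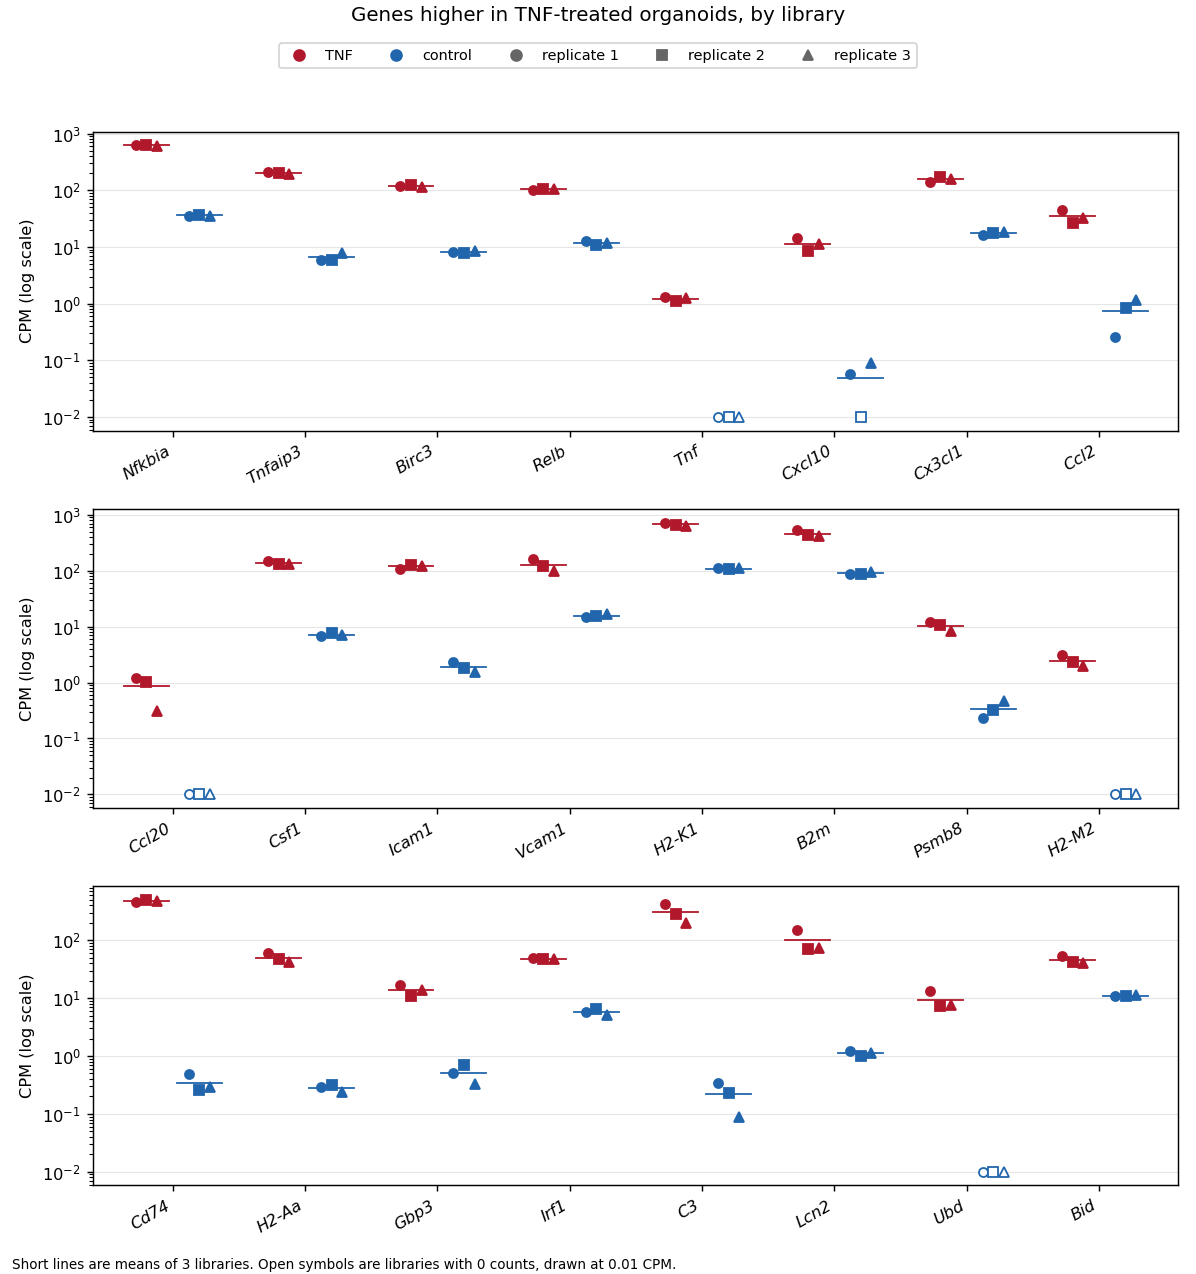
CPM on a log scale of 24 genes in each of the 3 TNF (red) and 3 control (blue) libraries, with group means as short lines and libraries without counts as open symbols at 0.01 CPM. For each of the 24 genes the red symbols lie above the blue ones, and C3, Lcn2 and Ubd show a wider spread among the TNF libraries than Nfkbia does.

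Most genes of antigen presentation by MHC class I were higher. Of 12 tested genes of heavy chains and beta-2 microglobulin, 9 were higher and 1 was lower (median log2 fold change 2.11). The summed level of the list was 1250.3 to 1466 FPKM in TNF organoids, against 406 to 418 FPKM in control organoids. H2-K1, a classical heavy chain, had 728, 666 and 645 CPM in TNF organoids, against 110.3, 108 and 111 CPM in control organoids (log2 fold change 2.63, SE 0.05, adjusted p = 2.65e-17). B2m, the light chain that all of them share, had 527, 439.6 and 418 CPM in TNF organoids, against 86.9, 88.4 and 94.1 CPM in control organoids (log2 fold change 2.36, SE 0.11, adjusted p = 3.38e-09). H2-D1 stood at 387 ± 24.7 CPM with TNF and 62.3 ± 2.04 CPM in control (log2 fold change 2.63, SE 0.06, adjusted p = 1.02e-16) and H2-Q4 at 117 ± 1.93 CPM with TNF and 10.2 ± 0.283 CPM in control (log2 fold change 3.52, SE 0.06, adjusted p = 5.79e-18). H2-M2 had 267 counts over the TNF libraries and 0 over the controls, at least 85.3-fold higher. H2-T23 was the member that was lower (log2 fold change -0.23, adjusted p = 0.00595). The heavy chain genes are close copies of each other, and the split of reads between them is uncertain. Of 14 genes that make and load the peptides, 12 were higher and 2 lower (median 1.00). The summed level of this list overlapped, at 1140 to 1199 FPKM in TNF organoids and 1157 to 1179 FPKM in control organoids. Psmb8, a catalytic subunit of the immunoproteasome, had 12.1, 10.6 and 8.45 CPM with TNF, against 0.229, 0.318 and 0.471 CPM in control (log2 fold change 4.93, SE 0.21, adjusted p = 1.33e-12). Psmb10, another catalytic subunit, stood at 24.8 ± 1.48 CPM with TNF and 5.11 ± 0.890 CPM in control (log2 fold change 2.28, SE 0.11, adjusted p = 4.75e-12). Erap1, which trims peptides, had a log2 fold change 1.09, and Tapbpl, which edits them, a log2 fold change 1.01. The 2 that were lower were Calr (log2 fold change -0.70) and Pdia3 (log2 fold change -0.38), general folding factors of the endoplasmic reticulum. Exons of Psmb8, Erap1, Pdia3 and H2-Q4 overlap those of genes on the other strand.

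MHC class II genes, which are best known from professional antigen-presenting cells, rose too. This list was added after the values had been seen, because Cd74 was among the 10 genes with the highest fold changes. Of its 10 tested genes, 8 were higher and 2 lower (median log2 fold change 2.61). Cd74, the invariant chain, had 466, 497 and 479 CPM in TNF organoids, against 0.487, 0.260 and 0.294 CPM in control organoids (log2 fold change 10.42, SE 0.21, adjusted p = 1.07e-11). H2-Aa, the alpha chain of the I-A molecule, had 59.8, 47.4 and 42.8 CPM in TNF organoids, against 0.287, 0.318 and 0.235 CPM in control organoids (log2 fold change 7.46, SE 0.26, adjusted p = 4.69e-10), and H2-Ab1, its beta chain, had 47.9 ± 1.38 CPM with TNF and 0.898 ± 0.121 CPM in control (log2 fold change 5.73, SE 0.17, adjusted p = 4.19e-12). Ciita, the transactivator of these genes, stood at 4.93 ± 0.801 CPM with TNF and 0.280 ± 0.0439 CPM in control (log2 fold change 4.12, SE 0.33, adjusted p = 8.63e-09), and its exons overlap those of Dexi on the other strand. The 2 lower genes, Rfxank (log2 fold change -0.47) and Rfxap (log2 fold change -0.34), encode subunits of the factor that binds class II promoters. The list summed to 473, 475 and 459 in TNF organoids, against 31.0, 31.3 and 30.2 in control organoids, in FPKM. Of 20 macrophage and microglia markers, 14 were in the table. Of these 14, 9, 10 and 8 were above 0 FPKM in the TNF libraries, against 8, 7 and 7 in the control libraries. Csf1r, Ctss and Trem2 were at 0 counts in all 6 libraries, and the pan-leukocyte gene Ptprc was at 0 in the TNF libraries. Aif1 and Cd14, of the same list, were higher with TNF, and the list summed to 3.07 to 4.68 FPKM in TNF organoids, against 1.30 to 1.88 FPKM in control organoids; its part in the class II result was not tested.

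Interferon-stimulated genes, which are induced by interferons and partly by NF-kB and IRF1, were mostly higher. Of 49 tested, 37 were higher and 2 lower (median log2 fold change 1.34). Gbp3, a guanylate-binding protein, had 16.6, 10.8 and 14.0 CPM in TNF organoids, against 0.516, 0.693 and 0.324 CPM in control organoids (log2 fold change 4.75, SE 0.24, adjusted p = 2.53e-09). Gbp2, of the same family, had 9.13, 6.26 and 5.48 CPM in TNF organoids, against 0.344, 0.953 and 0.853 CPM in control organoids (log2 fold change 3.28, SE 0.31, adjusted p = 1.33e-06). Rtp4 stood at 27.8 ± 3.20 CPM with TNF and 2.69 ± 0.208 CPM in control (log2 fold change 3.37, SE 0.11, adjusted p = 1.67e-14). Ddx58, which encodes the RNA sensor RIG-I, stood at 208 ± 10.9 CPM with TNF and 58.9 ± 1.73 CPM in control (log2 fold change 1.82, SE 0.06, adjusted p = 9.68e-15). Gbp5 had 81 counts over the TNF libraries and 1 over the controls, a ratio of 77.6-fold (95% counting interval 13.5 to 3103). Gbp6 (log2 fold change 2.26) and Gbp9 (log2 fold change 2.19) rose as well, but guanylate-binding proteins are close copies of each other and Gbp9 shares exons with Gbp4 and Gbp8. The 2 lower genes were Ifit2 (log2 fold change -1.03, adjusted p = 0.00673) and Iigp1 (log2 fold change -0.41, adjusted p = 1.78e-05), so that Ifit2 moved against Ifit1 (log2 fold change 2.47, adjusted p = 3.61e-05). Of the 28 genes of this list that rose and had a RefSeq promoter window, 19 (67.9%) held the response element TTTCNNTTTC, which 440 of 12395 tested genes (3.55%) held. The list was chosen as interferon-stimulated, so this share describes the list and not the TNF response. Over all genes with a window, 51 of 524 (9.73%) at least 2-fold higher and 15 of 498 (3.01%) at least 2-fold lower held the element. Of 21 tested genes of interferon signalling, 10 were higher and 3 lower. Irf1, a transcription factor shared by the TNF and interferon pathways, had 49.8, 47.1 and 47.5 CPM with TNF, against 5.71, 6.41 and 5.15 CPM in control (log2 fold change 3.06, SE 0.12, adjusted p = 7.97e-12), and exons of Irf1 and Rtp4 overlap those of predicted genes. Ifngr2, a chain of the interferon gamma receptor, stood at 119.7 ± 5.89 CPM with TNF and 17.2 ± 0.287 CPM in control (log2 fold change 2.80, SE 0.07, adjusted p = 1.59e-16). Irf8, a transcription factor of the same family as Irf1, stood at 19.9 ± 1.81 CPM with TNF and 1.57 ± 0.203 CPM in control (log2 fold change 3.67, SE 0.14, adjusted p = 3.66e-13), and Ifngr1, the other chain of the receptor, rose too (log2 fold change 1.02, adjusted p = 7.8e-10). Socs3, a feedback inhibitor of cytokine receptors, was lower (log2 fold change -1.35, adjusted p = 2.91e-05).

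Complement and acute phase genes held some of the highest fold changes. Of 16 tested complement genes, 6 were higher and 3 lower (median log2 fold change 0.32). C3, the central component, had 420.2, 290.5 and 200.1 CPM in TNF organoids, against 0.344, 0.231 and 0.0883 CPM in control organoids (log2 fold change 10.39, SE 0.50, adjusted p = 3.16e-07). The TNF libraries of C3 spread widely among themselves, and all lay far above the controls. C1s1 (log2 fold change 4.15, adjusted p = 2.3e-07) and C1ra (log2 fold change 2.87, adjusted p = 3.38e-06), proteases of the first component, rose as well. Cd59a, which protects cells from complement, was lower, with 1.70 ± 0.129 CPM with TNF and 3.01 ± 0.456 CPM in control (log2 fold change -0.82, SE 0.17, adjusted p = 0.000673). Of 13 tested acute phase and defence genes, 8 were higher and 1 lower (median 3.05). Lcn2, which binds bacterial siderophores, had 154, 70.0 and 75.0 CPM in TNF organoids, against 1.20, 1.01 and 1.12 CPM in control organoids (log2 fold change 6.48, SE 0.62, adjusted p = 3.46e-05). Ubd (chr17:37193892-37196101), a ubiquitin-like protein, had 1016 counts over the TNF libraries and 0 over the controls, at least 325-fold higher. Saa3, a serum amyloid, had 385 and 1 counts, a ratio of 369-fold (95% counting interval 65.8 to 14610.2). Camp, which encodes cathelicidin, stood at 7.54 ± 1.08 CPM with TNF and 0.745 ± 0.0990 CPM in control (log2 fold change 3.34, SE 0.17, adjusted p = 2.11e-11). Cp, which encodes the iron-oxidising protein ceruloplasmin, stood at 89.5 ± 14.5 CPM with TNF and 38.1 ± 3.52 CPM in control (log2 fold change 1.23, SE 0.15, adjusted p = 7.08e-05). Exons of C1s1 and Cp overlap those of genes on the other strand.

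Of 17 tested genes of pattern recognition, 6 were higher and 2 lower, in all a share near the 47.5% over all genes, and the median log2 fold change was 0.00092. Tlr2, the receptor of bacterial lipoproteins, had 132, 119 and 121 CPM with TNF, against 12.1, 10.4 and 13.2 CPM in control (log2 fold change 3.38, SE 0.08, adjusted p = 1.05e-15). Ripk2, the kinase of the NOD receptors, stood at 50.9 ± 1.48 CPM with TNF and 13.1 ± 0.517 CPM in control (log2 fold change 1.96, SE 0.07, adjusted p = 2.35e-13). Of the kinases that act behind these receptors, Irak2 rose (log2 fold change 1.02, adjusted p = 1.25e-09) and Irak1 was lower (log2 fold change -0.19, adjusted p = 0.00159). Tlr3, a sensor of double-stranded RNA, stood at 109 ± 7.76 CPM with TNF and 109 ± 1.75 CPM in control and Tlr4, that of lipopolysaccharide, at 16.3 ± 2.31 CPM with TNF and 17.5 ± 1.20 CPM in control, and neither passed. Among 27 genes of prostaglandin synthesis and oxidative defence, 16 were higher and 2 lower (median 0.29). Mt2, a metallothionein, had 78.4, 66.2 and 61.6 CPM in TNF organoids, against 5.68, 7.07 and 6.80 CPM in control organoids (log2 fold change 3.40, SE 0.13, adjusted p = 2.28e-11), and its exons overlap those of a predicted gene on the other strand. Gpx4, which removes lipid peroxides, stood at 334 ± 32.0 CPM with TNF and 177 ± 1.58 CPM in control (log2 fold change 0.92, SE 0.06, adjusted p = 1.72e-10). Nfe2l2, the transcription factor of the oxidative response, stood at 161 ± 4.61 CPM with TNF and 97.6 ± 6.84 CPM in control (log2 fold change 0.72, SE 0.06, adjusted p = 1.05e-08). Sod2, the mitochondrial superoxide dismutase and a textbook target of NF-kB, rose by little (log2 fold change 0.16, adjusted p = 0.012). Sod3, the extracellular superoxide dismutase, was lower, with 9.13, 6.99 and 7.81 CPM in TNF organoids, against 42.3, 42.4 and 45.1 CPM in control organoids (log2 fold change -2.44, SE 0.11, adjusted p = 3.04e-10).

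Genes of cell death and of p53 moved in both directions. Of 29 tested genes of apoptosis and necroptosis, 12 were higher and 4 lower (median log2 fold change 0.12). Bid, which links death receptors to the mitochondrion, had 54.0, 42.7 and 41.0 CPM with TNF, against 10.8, 10.7 and 11.3 CPM in control (log2 fold change 2.07, SE 0.11, adjusted p = 4.01e-11), and its exons overlap those of Bcl2l13 on the other strand. Casp4, an inflammatory caspase, had 150 counts over the TNF libraries and 2 over the controls, a ratio of 71.9-fold (95% counting interval 19.6 to 599). Mlkl, the effector of necroptosis (log2 fold change 2.14, adjusted p = 0.00765), and Gsdmd, that of pyroptosis (log2 fold change 1.62, adjusted p = 9.23e-07), rose. Bax, which opens the mitochondrial membrane, rose as well (log2 fold change 0.57, adjusted p = 2.28e-08). Bmf, a death activator, was lower (log2 fold change -1.0, adjusted p = 3.37e-08). Of 20 tested p53 targets and inhibitors of cyclin-dependent kinases, 9 were higher and 5 lower. Trp53 had 116, 128 and 121 CPM with TNF, against 47.1, 44.2 and 46.8 CPM in control (log2 fold change 1.41, SE 0.06, adjusted p = 9e-13), and Plk2, one of its targets, stood at 82.2 ± 5.56 CPM with TNF and 16.1 ± 0.710 CPM in control (log2 fold change 2.35, SE 0.07, adjusted p = 1.78e-14). Cdkn1a, which encodes p21, had a log2 fold change 0.88 (adjusted p = 4.06e-09), with exons that overlap a gene on the other strand. Cdkn2b, another inhibitor of cyclin-dependent kinases, was higher (log2 fold change 0.98, adjusted p = 1.15e-07). Mdm2, which degrades p53, stood at 66.6 ± 1.84 CPM with TNF and 69.1 ± 0.838 CPM in control and did not pass.

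Of 31 tested cell cycle genes, 10 were higher and 1 was lower (median log2 fold change 0.41). Mki67, a marker of dividing cells, stood at 1.44 ± 0.343 CPM with TNF and 0.482 ± 0.211 CPM in control (log2 fold change 1.57, SE 0.30, adjusted p = 0.000237). Ccnd1, which encodes cyclin D1, stood at 28.7 ± 12.8 CPM with TNF and 7.75 ± 0.0845 CPM in control (log2 fold change 1.89, SE 0.28, adjusted p = 0.000439). Ccnd2, which encodes cyclin D2 (log2 fold change 0.73, adjusted p = 6.42e-07), and Mcm7, of the helicase that starts replication (log2 fold change 0.59, adjusted p = 1.96e-06), rose too. The mitotic kinase gene Cdk1 stood at 0.908 ± 0.0403 CPM with TNF and 0.724 ± 0.0412 CPM in control and did not pass, and Cdc20, which ends mitosis, was lower (log2 fold change -1.30, adjusted p = 1.7e-08). Exons of Ccnd1 and Cdc20 overlap those of genes on the other strand. The transcription factor gene Myc, which drives growth, had 20.9, 22.3 and 23.5 CPM in TNF organoids, against 2.52, 3.32 and 3.30 CPM in control organoids (log2 fold change 2.87, SE 0.12, adjusted p = 1.31e-12). It stood out among 25 tested immediate early and heat shock genes, of which 8 were higher and 12 lower (median -0.20). Fos had 191, 237 and 209 CPM with TNF, against 519.9, 543 and 525 CPM in control (log2 fold change -1.32, SE 0.07, adjusted p = 2.1e-11). Fosb stood at 44.2 ± 7.43 CPM with TNF and 211 ± 3.92 CPM in control (log2 fold change -2.25, SE 0.09, adjusted p = 4.39e-11). Egr1 stood at 393 ± 43.5 CPM with TNF and 753 ± 9.17 CPM in control (log2 fold change -0.94, SE 0.06, adjusted p = 5.38e-10). These 3 genes respond within minutes to growth factors and stress, and all were lower in every TNF library than in any control library.

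Several matrix genes of the cochlear epithelium were lower. Of 13 tested genes of the tectorial and otolithic membranes, 6 were lower and 2 higher (median log2 fold change -0.72). Otog (chr7:46240987-46311434), which encodes the glycoprotein otogelin, had 1365, 1660.0 and 1690.2 CPM in TNF organoids, against 5278, 5066 and 5326 CPM in control organoids (log2 fold change -1.73, SE 0.07, adjusted p = 1.31e-12). Otoa, which attaches these gels to the epithelium, had 2083, 2418 and 2281 CPM in TNF organoids, against 5423, 5366 and 5475 CPM in control organoids (log2 fold change -1.26, SE 0.06, adjusted p = 9.86e-12). For both genes the lowest control library lay far above the highest TNF library. Tecta, which encodes alpha-tectorin, stood at 704 ± 103 CPM with TNF and 991 ± 32.1 CPM in control (log2 fold change -0.49, SE 0.09, adjusted p = 0.000308), whereas Tectb, for beta-tectorin, stood at 18.1 ± 13.2 CPM with TNF and 17.2 ± 1.34 CPM in control and did not pass. Otol1, of the otolith, stood at 2106 ± 98.0 CPM with TNF and 3049 ± 40.7 CPM in control (log2 fold change -0.53, SE 0.05, adjusted p = 1.13e-07). The members that were higher were Otop1 (log2 fold change 1.35), a proton channel of the otolith organs, and Emilin2 (log2 fold change 0.55, adjusted p = 0.0248), whose call was lost without TNF replicate 1 (adjusted p = 0.0635), TNF replicate 2 (0.0553), control replicate 1 (0.0618) or control replicate 2 (0.0704). Exons of Tecta overlap those of a predicted gene on the other strand. These are bulk measurements, in which fewer cells of a type and less RNA per cell cannot be told apart.

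Of 36 tested genes of collagens and basement membrane, 16 were lower and 2 higher (median log2 fold change -0.43). Col11a2, a fibrillar collagen of the tectorial membrane, had 1063, 1229 and 1309.8 CPM in TNF organoids, against 2733, 2617 and 2547 CPM in control organoids (log2 fold change -1.13, SE 0.07, adjusted p = 2.83e-10). Col4a3 (log2 fold change -2.05, adjusted p = 1.01e-08) and Col4a4 (log2 fold change -1.39, adjusted p = 3.11e-10), chains of basement membrane collagen, were lower. Col4a1 (log2 fold change -0.22, adjusted p = 0.454) and Col4a2 (log2 fold change -0.48, adjusted p = 0.104), whose exons overlap each other, did not pass with all libraries but did without TNF replicate 1, at -0.51 (adjusted p = 0.0149) and -0.75 (adjusted p = 0.00429). Fbln2 (chr6:91212460-91272540), which encodes the matrix protein fibulin 2, had the lowest fold change of all genes that met the conditions for naming, with 3.53, 2.74 and 1.92 CPM in TNF organoids, against 121, 119.8 and 124 CPM in control organoids (log2 fold change -5.47, SE 0.11, adjusted p = 1.88e-14). The fibrillar collagens of connective tissue did not pass, and TNF replicate 1 stood above all others. Col1a1 had 62.7, 0.950 and 7.12 CPM in TNF organoids, against 16.4, 15.1 and 17.2 CPM in control organoids (adjusted p = 0.718). Col3a1 had 98.4, 6.82 and 11.3 CPM in TNF organoids, against 28.4, 27.3 and 29.6 CPM in control organoids (adjusted p = 0.693). In both genes the other TNF libraries lay below the controls, so the groups overlapped. Without TNF replicate 1 the log2 fold change was -1.98 for Col1a1 (adjusted p = 0.136) and -1.63 for Col3a1 (adjusted p = 0.00284), against 0.54 and 0.45 with it. The counts of Col3a1 and Col4a3 are uncertain, as their exons overlap those of other genes.

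Igfbp5 (chr1:72858065-72874865), a secreted binding protein of insulin-like growth factors, was the most abundant nuclear transcript in the control libraries, taking up to 2.65% of their counts. It had 9774, 12185 and 12821 CPM in TNF organoids, against 26489, 26762 and 27535 CPM in control organoids (log2 fold change -1.22, SE 0.07, adjusted p = 2.03e-10). Igf1 was lower as well (log2 fold change -1.50, adjusted p = 3.34e-05), and the other 7 tested genes of this family did not pass, among them Igfbp2, at 216 ± 102 CPM with TNF and 210.1 ± 3.99 CPM in control. Igf2 stood at 4.72, 0.112 and 0.473 CPM with TNF, against 0.774, 1.21 and 0.883 CPM in control and Igfbp7 at 5.79, 0.335 and 0.695 CPM with TNF, against 1.41, 1.13 and 1.12 CPM in control, and neither passed (adjusted p = 0.497 and adjusted p = 0.533). Both were highest in TNF replicate 1. Without that library the log2 fold change of Igf2 was -1.68 (adjusted p = 0.0061) and that of Igfbp7 was -1.21 (adjusted p = 0.353), against 0.89 and 0.90 with it, and 4 genes of the family were lower. Exons of Igf2, Igfbp7, Mmp11 and Timp3 overlap those of other genes. Of 21 tested matrix proteases and their inhibitors, 8 were higher and 6 lower (median 0.20). Mmp9, a gelatinase, had 15.8, 10.2 and 6.53 CPM in TNF organoids, against 0.0287, 0.0578 and 0.118 CPM in control organoids (log2 fold change 7.25, SE 0.61, adjusted p = 3.32e-06; 7.86 without control replicate 3). Timp1, an inhibitor of such enzymes, stood at 2.68 ± 1.17 CPM with TNF and 0.445 ± 0.147 CPM in control (log2 fold change 2.58, SE 0.34, adjusted p = 5.05e-06). Mmp11 (log2 fold change -0.69) and Timp2 (log2 fold change -0.85) were lower, and Adamts1 (log2 fold change 1.82) and Timp3 (log2 fold change 0.75) were higher.

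**Figure D3:**
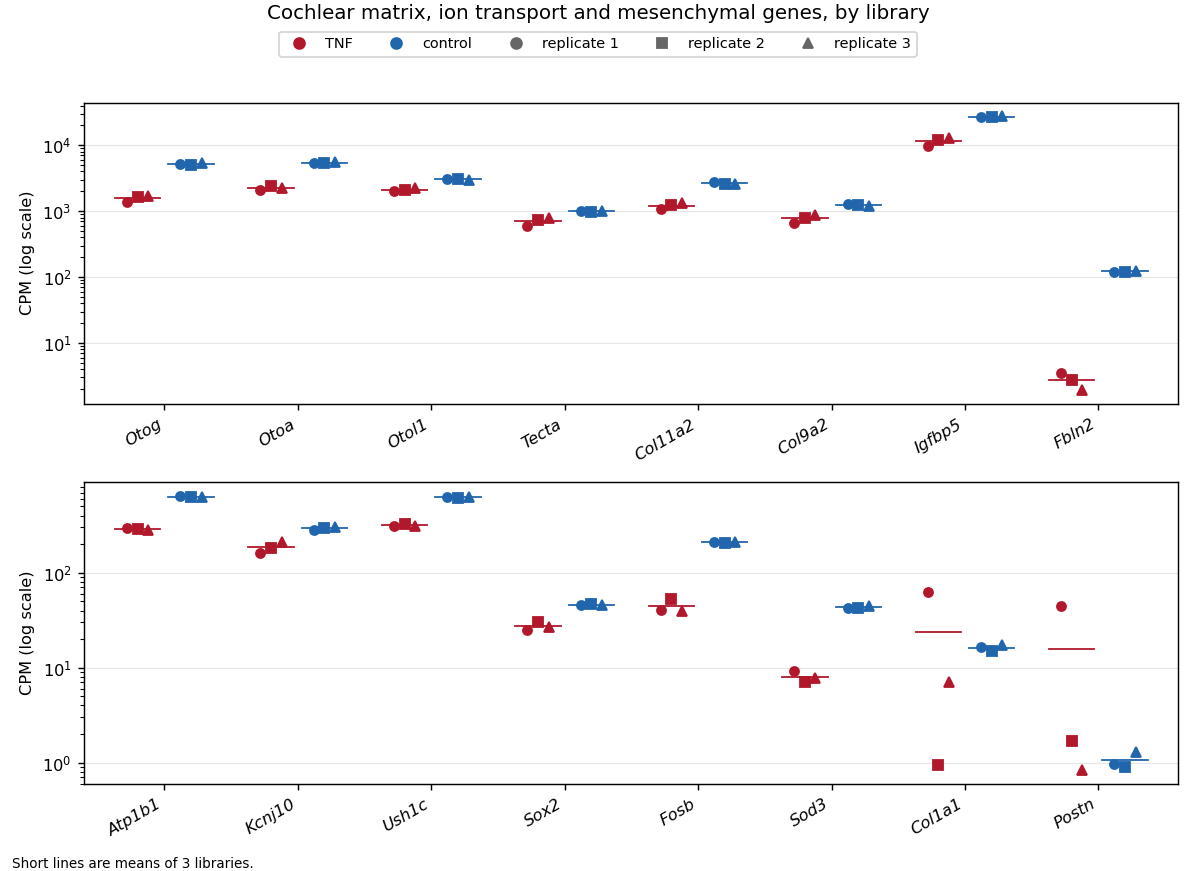
CPM on a log scale of 16 genes of cochlear matrix, ion transport, cell identity and mesenchyme in each of the 3 TNF (red) and 3 control (blue) libraries, with group means as short lines. The red symbols lie below the blue ones from Otog to Sod3, whereas for Col1a1 and Postn TNF replicate 1 (circle) lies apart from the other TNF libraries.

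Genes of ion transport in the lateral wall and supporting cells were lower in 8 of 17 tested members and higher in 3 (median log2 fold change -0.48). Atp1b1, a beta subunit of the sodium-potassium pump, had 295, 287 and 279 CPM in TNF organoids, against 644, 631 and 629 CPM in control organoids (log2 fold change -1.14, SE 0.05, adjusted p = 5.65e-12), and its exons overlap those of Nme7 on the other strand. Atp1b2, another beta subunit, stood at 11.4 ± 1.25 CPM with TNF and 37.9 ± 1.90 CPM in control (log2 fold change -1.73, SE 0.07, adjusted p = 9.39e-13). The potassium channel gene Kcnj16 stood at 16.3 ± 1.25 CPM with TNF and 51.8 ± 3.23 CPM in control (log2 fold change -1.67, SE 0.10, adjusted p = 5.68e-10). Kcnj10, the channel that forms the endocochlear potential with the stria, had 160.2, 184 and 211 CPM with TNF, against 284, 294 and 305 CPM in control (log2 fold change -0.67, SE 0.08, adjusted p = 1.61e-05). All of these were lower in TNF organoids, without overlap. Slc12a2, the sodium-potassium-chloride cotransporter, went the other way, with 126, 126 and 114 CPM with TNF, against 73.5, 72.3 and 73.7 CPM in control (log2 fold change 0.74, SE 0.05, adjusted p = 2.03e-09). The connexin genes of hereditary deafness, Gjb2 and Gjb6, stood at 604 ± 80.4 CPM with TNF and 590.0 ± 10.5 CPM in control and at 92.2 ± 0.642 CPM with TNF and 97.6 ± 2.21 CPM in control, and neither passed, whereas the connexin gene Gja1 rose (log2 fold change 1.55, adjusted p = 0.00556).

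Of 29 tested hair cell genes, 1 (3.45%) was higher and 5 (17.2%) were lower (median log2 fold change -0.19). Both shares lay under those over all genes, 23.3% and 24.2%. The count depended on the fit: with the TNF and control libraries alone, 2 were higher and 10 lower. Ush1c, which encodes the scaffold protein harmonin of the hair bundle, had 311, 327 and 313 CPM in TNF organoids, against 626, 618 and 636 CPM in control organoids (log2 fold change -0.98, SE 0.05, adjusted p = 4.22e-11), and its exons overlap those of Gm9860 on the other strand. Tmie, of the transduction channel, stood at 5.00 ± 1.31 CPM with TNF and 9.14 ± 0.628 CPM in control (log2 fold change -0.87, SE 0.16, adjusted p = 0.000188), and its exons overlap those of Als2cl. Atoh1, the transcription factor that starts hair cell fate, stood at 2.32 ± 0.300 CPM with TNF and 3.42 ± 0.0824 CPM in control (log2 fold change -0.56, SE 0.21, adjusted p = 0.0374), but its adjusted p was 0.0954 without TNF replicate 2, 0.127 without TNF replicate 3 and 0.068 to 0.0827 without any 1 of the controls. Pou4f3, a transcription factor of hair cells, stood at 7.12 ± 0.948 CPM with TNF and 7.22 ± 0.507 CPM in control, and Myo7a, the myosin of the hair bundle, at 18.5 ± 3.47 CPM with TNF and 22.2 ± 0.823 CPM in control, and neither passed. The list summed to 180.2, 186 and 193 in TNF organoids, against 267, 262 and 268 in control organoids, in FPKM, but most of that gap came from Ush1c, which other epithelia also express. Without it the sums were 102, 105 and 114 in TNF organoids, against 114, 110.5 and 113 in control organoids. The count of 5 lower genes was 3 without TNF replicate 1 or 2 or control replicate 2 or 3 and 2 without control replicate 1.

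Supporting cell and prosensory genes were split, with 7 higher and 12 lower of 27 tested (median log2 fold change -0.08). Sox2, the transcription factor of the prosensory domain, had 25.0, 30.2 and 26.6 CPM in TNF organoids, against 45.4, 47.2 and 46.1 CPM in control organoids (log2 fold change -0.76, SE 0.07, adjusted p = 3.61e-08). Sox9 (log2 fold change -0.32, adjusted p = 0.000452) and Gata3 (log2 fold change -0.35, adjusted p = 0.00926), transcription factors of the otic epithelium, were lower too. Jag1, the Notch ligand of supporting cells, rose (log2 fold change 1.07, adjusted p = 3.69e-05), whereas Prox1, a transcription factor of supporting cells, stood at 2.93 ± 0.401 CPM with TNF and 2.94 ± 0.666 CPM in control and did not pass. The keratin gene Krt18 had 903, 813 and 747 CPM with TNF, against 503, 497 and 496 CPM in control (log2 fold change 0.72, SE 0.07, adjusted p = 4.62e-08), and Krt8 stood at 819 ± 113 CPM with TNF and 426 ± 4.32 CPM in control (log2 fold change 0.94, SE 0.09, adjusted p = 7.48e-07). The intermediate filament gene Vim rose further, with 264, 222 and 241 CPM in TNF organoids, against 78.8, 83.5 and 88.2 CPM in control organoids (log2 fold change 1.54, SE 0.11, adjusted p = 7.61e-07). Among 15 tested genes of simple and secretory epithelium, 8 were higher, 4 of them at least 2-fold, and 2 were lower, both at least 2-fold. The median log2 fold change was 0.22 and the lowest was -1.15. The members named next all rose, and the lower ones are not named. The transcription factor gene Ehf stood at 6.16 ± 0.713 CPM with TNF and 0.919 ± 0.147 CPM in control (log2 fold change 2.74, SE 0.26, adjusted p = 8.18e-08). The phosphate transporter gene Slc34a2 was higher (log2 fold change 0.78, adjusted p = 3.9e-07). The basal cell genes Trp63 and Krt14 had 134 and 71 counts over the TNF libraries, against 2 and 1 over the controls, ratios of 64.2-fold (95% counting interval 17.4 to 536) and 68.0-fold (95% counting interval 11.8 to 2725). Exons of Krt8 and Gata3 overlap those of predicted genes.

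Markers of other cell types did not move together, and those of blood and vessel cells were low. Macrophage and microglia markers summed to 4.68, 3.84 and 3.07 in TNF organoids, against 1.30, 1.88 and 1.54 in control organoids, in FPKM, and of 4 tested, 2 were higher and none lower. The 2 were Aif1, with 217 counts over the TNF libraries and 0 over the controls (at least 69.3-fold higher), and Cd14 (log2 fold change 2.19, adjusted p = 0.00224; 1.49 without TNF replicate 1). The lysosomal marker Cd68 stood at 1.12 ± 0.301 CPM with TNF and 1.31 ± 0.264 CPM in control and did not pass. Lymphocyte and granulocyte markers summed to 0.217, 0.382 and 0.528 in TNF organoids, against 0.847, 0.512 and 0.628 in control organoids, in FPKM, and Cd3e, of the T cell receptor complex, did not pass (log2 fold change -0.91, adjusted p = 0.0745; 0.0447 without TNF replicate 3). Smooth muscle and pericyte markers summed to 11.5, 3.24 and 3.88 in TNF organoids, against 0.760, 0.934 and 0.701 in control organoids, in FPKM, with the highest value in TNF replicate 1; of 8 tested, Rgs5 (log2 fold change 6.10, adjusted p = 0.00178; 5.29 without TNF replicate 1) and Cspg4 (log2 fold change 2.87, adjusted p = 0.0378) were higher. The call of Cspg4 was lost without TNF replicate 1 (log2 fold change 1.28, adjusted p = 0.358) and without control replicate 1 (adjusted p = 0.0718), 2 (0.103) or 3 (0.101). Of 19 fibroblast genes, 2 were higher and 2 lower. The list summed to 776, 635 and 703 in TNF organoids, against 762, 764 and 740.3 in control organoids, in FPKM, mostly from Lum and Dcn, small proteoglycans of connective tissue, which were lower (log2 fold change -0.40 and log2 fold change -0.45), and from Vim, given above. Prrx1, a transcription factor of mesenchyme, was higher (log2 fold change 0.88, adjusted p = 5.51e-08). The call of Lum was lost without TNF replicate 1 (adjusted p = 0.0522). Postn, which the list also includes, had 44.4, 1.68 and 0.834 CPM in TNF organoids, against 0.975, 0.895 and 1.29 CPM in control organoids (log2 fold change 3.89, adjusted p = 0.0553; 0.0286 without TNF replicate 2 and 0.0182 without TNF replicate 3). Of 14 glial genes, 3 were higher and 5 lower. The list summed to 264, 297 and 315 in TNF organoids, against 356, 355 and 355 in control organoids, in FPKM, mostly from Sox10, which the otic epithelium expresses too and which was lower (log2 fold change -0.39, adjusted p = 0.000109). S100b (log2 fold change -1.53, adjusted p = 4.46e-08) and Ncam1 (log2 fold change -1.13, adjusted p = 1.31e-07) were lower as well. The largest rise in the glial list was that of Ngfr (log2 fold change 2.98), given above among the receptor genes. Of 8 endothelial genes, 1 was higher and 1 lower, and Cldn5 and Erg were at 0 in all 6 libraries. The 2 were Eng (log2 fold change 0.80, adjusted p = 0.0264), whose call was lost without TNF replicate 1 (0.153), control replicate 1 (0.0826) or control replicate 2 (0.117), and Flt1 (log2 fold change -1.21, adjusted p = 0.0492), whose adjusted p was 0.0617 to 0.141 without any 1 of the libraries other than control replicate 2. Of 11 neuronal genes 2 were higher and 3 lower, among them Syt1, of synaptic vesicles, at 4.82 ± 1.18 CPM with TNF and 0.223 ± 0.121 CPM in control (log2 fold change 4.42, adjusted p = 1.38e-06), and Map2, of microtubules (log2 fold change -0.51, adjusted p = 8.04e-07). Of 4 melanocyte genes 2 were higher and 1 lower, with rises of Ednrb (log2 fold change 0.53, adjusted p = 5.34e-07) and Kit (log2 fold change 0.41, adjusted p = 0.0166), the second lost without TNF replicate 2 (0.0699) or control replicate 1 (0.0795). Of 9 muscle and cartilage genes 0 were higher and 2 lower. Matn1, a matrix protein of cartilage, had 3 counts over the TNF libraries and 48 over the controls, a ratio of control over TNF of 16.7-fold (95% counting interval 5.38 to 83.8). The part of any of these cells in the results was not tested.

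**Figure D4:**
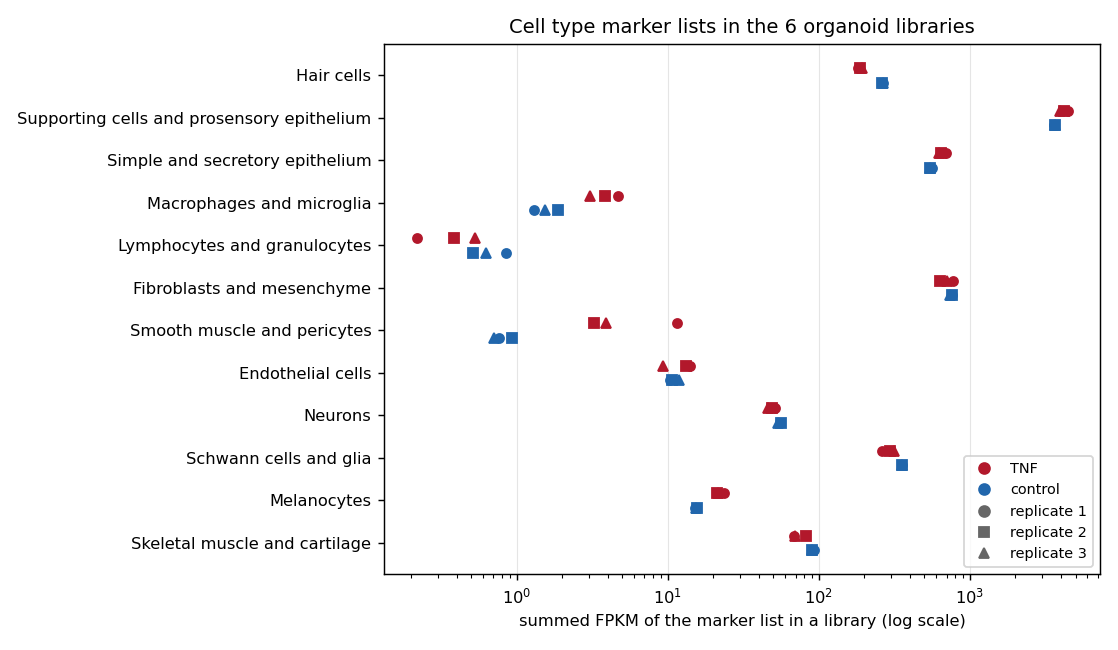
Summed FPKM, on a log scale, of 12 cell type marker lists in each of the 3 TNF (red) and 3 control (blue) libraries. Supporting cell, simple epithelium and fibroblast sums lie above those of the other lists, while macrophage sums stay below 5 FPKM, lymphocyte sums stay below 1 FPKM, and smooth muscle sums are highest in TNF replicate 1.

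The lists of protein synthesis and energy metabolism held more higher than lower genes, with small fold changes. All 79 cytosolic ribosomal protein genes were higher, a list added after the values had been seen, with a median log2 fold change of 0.51, and the lowest member kept a positive value under each scaling. The list summed to 45795, 44799 and 42682 in TNF organoids, against 30489.8, 31302 and 31453 in control organoids, in FPKM; reads of these genes are shared with many pseudogenes. Of 40 tested nuclear genes of oxidative phosphorylation, 32 were higher and none lower (median 0.21). Uqcrc2 of complex III stood at 151 ± 8.19 CPM with TNF and 116 ± 1.80 CPM in control (log2 fold change 0.38, SE 0.05, adjusted p = 8.18e-06), and Uqcrfs1 of the same complex (log2 fold change 0.33) and Ndufv2 (log2 fold change 0.35) and Ndufa9 (log2 fold change 0.34) of complex I were higher. Of 25 genes of cholesterol and fatty acid synthesis, 16 were higher and 1 was lower (median 0.34). Sqle (log2 fold change 0.84) and Sc5d (log2 fold change 0.79), enzymes of cholesterol synthesis, were higher. Elovl6, which lengthens fatty acids, had a log2 fold change 1.64, and the lower gene was Srebf1 (log2 fold change -0.65), a transcription factor of lipid synthesis. Exons of Uqcrc2, Elovl6 and Srebf1 overlap those of genes on the other strand. Of 22 genes of hypoxia and glycolysis, 11 were higher and 2 lower (median 0.30); the first count was 7 without control replicate 1 or without control replicate 2. The glycolytic genes Gapdh (log2 fold change 0.56) and Eno1 (log2 fold change 0.67) and the oxygen-sensing factor gene Hif1a (log2 fold change 0.38) were higher, and the aldolase gene Aldoc was lower (log2 fold change -0.54). Unfolded protein and amino acid stress genes were 5 higher and 9 lower of 20, with log2 fold changes of -0.83 for Sdf2l1, 0.61 for Asns, 0.47 for Eif2ak3, which encodes the stress kinase PERK, and -0.35 for Phgdh, which starts serine synthesis.

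In the Notch pathway, which LY411575 blocks, 5 genes were higher and 7 lower of 20 tested. The receptor genes Notch1 (log2 fold change -0.88, adjusted p = 4.99e-07) and Notch3 (log2 fold change -1.04, adjusted p = 3.59e-08) and the target gene Hes1 (log2 fold change -0.82, adjusted p = 0.000842) were lower, and the target gene Hey1 was higher (log2 fold change 0.68, adjusted p = 0.000133). In the Wnt pathway, which CHIR99021 activates, 8 were higher and 7 lower of 25 (median log2 fold change 0). Rspo1, a secreted enhancer of Wnt signalling, had 22.4, 24.8 and 23 CPM in TNF organoids, against 0, 0 and 0.118 CPM in control organoids (log2 fold change 9.12, adjusted p = 4.19e-12). Its only control counts, 4 in all, were in control replicate 3. Without that library the fitted 12.72 rests on 0 control counts and is not a measured fold. Notum, a secreted inhibitor, stood at 4.80 ± 0.696 CPM with TNF and 1.06 ± 0.133 CPM in control (log2 fold change 2.17, SE 0.25, adjusted p = 7.76e-07). The secreted Wnt modulators Sfrp1 (log2 fold change -0.57, adjusted p = 1.69e-07) and Dkk3 (log2 fold change -0.89, adjusted p = 3.99e-06) were lower. The Wnt target genes Axin2 (log2 fold change 0.12, adjusted p = 0.0599) and Lgr5, at 35.6 ± 9.92 CPM with TNF and 35.6 ± 2.33 CPM in control, did not pass, although Axin2 did without TNF replicate 1 (log2 fold change 0.19, adjusted p = 0.00595). Exons of Notch1, Notch3, Notum and Axin2 overlap those of genes on the other strand.

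By the rule for the largest changes, the 10 highest genes were Ubd, Cd74, C3, H2-M2, Aif1, Rspo1, Slc6a4, Madcam1, Tnf and Fsd2. Of these, Ubd, H2-M2, Aif1, Slc6a4, Tnf and Fsd2 had 0 counts in the controls. Their fitted fold changes, and with them their places in this ranking, depend on how edgeR treats 0 counts. Of the 2 not yet given, Slc6a4, the serotonin transporter, had 164 counts over the TNF libraries and 0 over the controls (at least 52.4-fold higher), and Fsd2 had 161 and 0 (at least 51.4-fold higher). The 10 lowest were Fbln2, Lypd1, Hpca, Nos1, Bcan, Shisa8, Kcnt1, Penk, Crtac1 and Flrt1. Several of these are known from the nervous system: Hpca, a neuronal calcium sensor, stood at 0.334 ± 0.169 CPM with TNF and 6.31 ± 0.450 CPM in control (log2 fold change -4.23, SE 0.32, adjusted p = 3.55e-09). Nos1, the neuronal nitric oxide synthase, stood at 0.223 ± 0.129 CPM with TNF and 3.17 ± 0.131 CPM in control (log2 fold change -3.81, SE 0.22, adjusted p = 6.79e-11). Bcan, a matrix proteoglycan of the brain, stood at 0.130 ± 0.0421 CPM with TNF and 1.66 ± 0.252 CPM in control (log2 fold change -3.64, SE 0.33, adjusted p = 3.31e-08). Penk, which encodes the precursor of enkephalins, had 0.166, 0.196 and 0.111 CPM with TNF, against 1.43, 1.18 and 1.21 CPM in control (log2 fold change -2.99, SE 0.47, adjusted p = 3.22e-05). Lypd1 (log2 fold change -5.05), Shisa8 (log2 fold change -3.39), Kcnt1 (log2 fold change -3.28), Crtac1 (log2 fold change -2.96) and Flrt1 (log2 fold change -2.94) were lower as well. The log2 fold change was -6.80 without TNF replicate 3 for Lypd1, and -3.91 for Kcnt1 and -3.86 for Crtac1 without TNF replicate 1. Exons of Lypd1, Hpca, Nos1, Penk and Crtac1 overlap those of other genes on the other strand. Of the genes given above, Bax, Ccnd2, Cd3e, Cd74, Eif2ak3, Eng, Gapdh, Gbp2, Gbp6, Hif1a, Irak1, Irak2, Map2, Mcm7, Ncam1, Ndufa9 and Rfxank also have exons that overlap those of other genes, and their counts are uncertain.

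Rbm25, the gene targeted in the other organoids, had 150.0, 163 and 173 CPM in TNF organoids, against 142, 148 and 144 CPM in control organoids (log2 fold change 0.16, SE 0.06, adjusted p = 0.0315). The groups did not overlap and the rise was small, and it no longer passed without TNF replicate 2 (adjusted p = 0.0521), TNF replicate 3 (0.103), control replicate 1 (0.0985) or control replicate 3 (0.0803). Exons of Rbm25 overlap those of Gm29361 on the other strand, so its count is uncertain. In the knockdown organoids Rbm25 had 103, 122 and 108 CPM with TNF and 96.9, 94.2 and 92.7 CPM without it, lower in every library than in any TNF or control library outside the knockdown, though far from 0.

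The TNF effect was also measured in organoids with the RBM25 knockdown, by comparing those given TNF and the knockdown with those given the knockdown alone, which share no library with the first comparison. Organoids without the knockdown are not labelled as having received a lentivirus. In the differences below, the lentivirus and the loss of RBM25 therefore cannot be told apart. There 3630 genes (22.8%) were higher and 3493 (22%) lower, 44.8% in either direction. Of the 3706 genes higher with TNF alone, 2507 were called higher there too, which is 67.6% of the first list and 69.1% of the second, and 79 were called lower. Of the 3840 lower genes, 2306 were called lower there too (60.1% and 66% of the lists), and 102 were called higher. Among genes at least 2-fold changed, 611 of 722 higher and 481 of 680 lower genes kept their call. The difference of the effects passed for 1962 genes (12.3%), 1198 (7.54%) with a more positive and 764 (4.81%) with a more negative TNF effect under the knockdown. These counts lean on single libraries: the first was 637 without replicate 1 and 677 without replicate 3 of TNF with the knockdown and 789 without control replicate 1. The second was 432 without control replicate 1, 477 without control replicate 2, 486 without knockdown replicate 2 and 1158 without replicate 2 of TNF with the knockdown.

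The log2 effect of TNF on Nfkbia was 4.31 with the knockdown and 4.11 without it (difference 0.21, SE 0.07, adjusted p = 0.0471), and that difference no longer passed when any 1 of the 12 libraries was left out. Matrix genes differed among themselves. Falls were smaller for Otog, with log2 effects of -0.94 with the knockdown and -1.73 without it (difference 0.79, SE 0.10, adjusted p = 6.97e-05), and for Fbln2, at -4.29 with the knockdown and -5.47 without it (difference 1.19, SE 0.15, adjusted p = 0.000167). The fall of Tecta was larger, at -1.09 with the knockdown and -0.49 without it (difference -0.60, SE 0.13, adjusted p = 0.00609), and for Otoa the effects of -1.09 with the knockdown and -1.26 without it did not differ past the threshold (difference 0.17, SE 0.09, adjusted p = 0.229). Falls were smaller also for Igfbp5, at -0.60 with the knockdown and -1.22 without it (difference 0.61, SE 0.10, adjusted p = 0.000883), and Fosb, at -0.23 with the knockdown and -2.25 without it (difference 2.02, SE 0.12, adjusted p = 1.47e-07). Rises were smaller for Mt2, at 1.53 with the knockdown and 3.40 without it (difference -1.87, SE 0.18, adjusted p = 2.03e-05), and for Elovl6, at 0.48 with the knockdown and 1.64 without it (difference -1.16, SE 0.09, adjusted p = 1.18e-07). The cotransporter gene Slc12a2, higher with TNF alone, had log2 effects of -0.13 with the knockdown and 0.74 without it (difference -0.87, SE 0.08, adjusted p = 7.12e-07). These differences, other than those of Nfkbia and Otoa, passed whichever of the 12 libraries was left out. Interferon-stimulated genes were called higher in 48 and lower in 1 of 49 under the knockdown, with a median log2 effect of 3.05. Ifit1, an antiviral RNA-binding protein, had log2 effects of 6.61 with the knockdown and 2.47 without it (difference 4.14, SE 0.54, adjusted p = 0.000386). By the rule for the largest differences, the highest were those of Cyp1a1, Oas1g, Usp18 and Gpnmb, and the lowest those of Cilp, Camkv, Car10 and Lcp1, all transcripts of few CPM. Usp18, which removes Isg15 from proteins, stood at 6.15 ± 0.491 CPM with TNF and the knockdown and 0.0191 ± 0.0166 CPM with the knockdown alone, and at 0.176 ± 0.105 CPM with TNF and 0.0481 ± 0.0328 CPM in control (difference 6.34, SE 1.21, adjusted p = 0.00177). Exons of Usp18 overlap those of Gm44148 on the other strand, so its count is uncertain. Camkv, a pseudokinase of synapses, stood at 0.951 ± 0.274 CPM with TNF and the knockdown and 2.22 ± 0.555 CPM with the knockdown alone, and at 1.42 ± 0.275 CPM with TNF and 0.271 ± 0.0895 CPM in control (difference -3.59, SE 0.47, adjusted p = 6.98e-05). Of these 8, Oas1g, Usp18, Gpnmb and Camkv kept the call whichever of the 12 libraries was left out, Cilp kept it in 11 of 12 cases, Car10 in 4, Lcp1 in 2 and Cyp1a1 in 1.

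**Figure D5:**
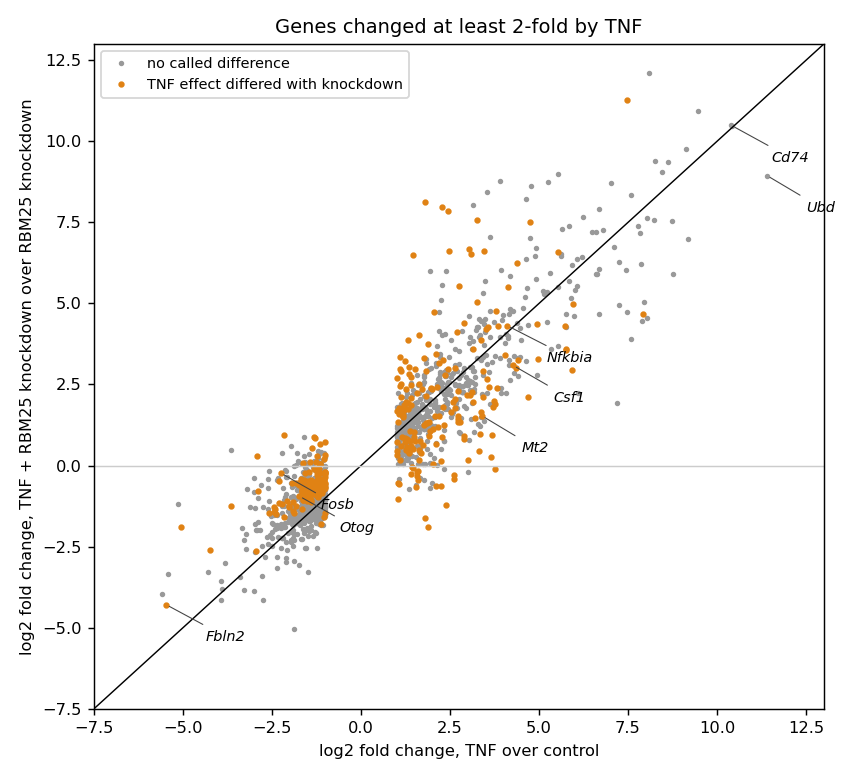
Log2 effect of TNF with the RBM25 knockdown (vertical axis) against the log2 effect without it (horizontal axis) for the genes changed at least 2-fold by TNF, with the line of equality; orange points differ between the settings by the test of the difference. Nfkbia and Cd74 lie near the line, while Otog, Fbln2 and Fosb lie above it and Mt2 lies below it.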

How the data were processed

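Gene expression was measured by RNA sequencing of 12 organoid libraries, 3 in each of 4 groups, made with an unstranded TruSeq kit per the labels' protocols. The authors deposited whole-number read counts per gene without normalization, and per the submitters' processing notes Trimmomatic, HISAT2, HTSeq and DESeq2 were used with mm10; the sources used here give no versions or settings. The authors also deposited FPKM values, scaled to gene length and depth, used here to compare levels between genes. From the counts, edgeR 4.0.16 (R 4.3.3) was run on all 12 libraries with 1 coefficient per group, TMM factors, filterByExpr and robust quasi-likelihood dispersion, and two-sided F-tests were adjusted by Benjamini-Hochberg over 15888 genes. Means are given with SD, and log2 fold changes with the SE of the fit. Where a group had 0 counts, the fold is at least the ratio to 3 counts over that group, and with 1 to 3 counts it is a ratio with an exact 95% interval; both cover counting error only.

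The members of the comparison and the 42 gene lists (30 of responses, 12 of cell types) were chosen with earlier results of these data known, and lists of MHC class II and ribosomal genes were added after seeing the data. By rule, the text names Tnf, Rbm25, the 10 highest and 10 lowest genes (at least 1 CPM in the higher group, no overlap of libraries, no predicted name), the up to 4 members of each response list and 2 of each cell type list with the smallest p, and the 4 highest and 4 lowest genes of the interaction; other list members, such as Tnfaip3 or Gjb2, were chosen after their values were seen. A member that the rule would name is not reported here. RefSeq GRCm38.p6 gave coordinates for 15668 genes and promoter windows for 12395, and GENCODE vM21 gave overlaps of exons. On simulated data the pipeline recovered 70.3% of 1.5-fold, 81.1% of 2-fold and 100% of 4-fold changes among 15638 genes for TNF against control, and 6.36% of its calls were unchanged genes. Alternatives were the Wald test of DESeq2 1.42.0, its size factors, all genes without a filter, limma-trend (limma 3.58.1) on log2(FPKM + 1), a replicate block, a minimum fold of 1.5, a fit of the 6 libraries alone and each library left out.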

Additional observations from a re-analysis of the deposited data

Results flagged for a closer look

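The results below had a TNF effect that differed between organoids with the RBM25 knockdown and organoids without it, by edgeR's quasi-likelihood test of the difference (adjusted p under 0.05); 1962 genes did so in all, 12.3% of those tested. Each value is the log2 effect of TNF under the knockdown minus its log2 effect in organoids without one. A positive value is a stronger rise, a smaller fall or a rise in place of a fall under the knockdown. A negative value is the reverse. The log2 effect of Iigp1 was 1.29 with the knockdown and -0.41 without it. That of Mki67 was -0.19 with the knockdown and 1.57 without it. No explanation was tested. Organoids without the knockdown are not labelled as having received a lentivirus, so the virus and the loss of RBM25 cannot be told apart.

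Among NF-kB and TNF signalling genes the difference was 0.44 for Birc3, -0.51 for Ikbke, 0.21 for Nfkbia, -0.56 for Tnfaip3, 0.70 for Nfkbie, 0.47 for Relb, 0.29 for Nfkb2, -1.16 for Bcl3 and -0.52 for Eda2r. Among chemokine, cytokine, adhesion and antigen presentation genes it was 1.37 for Cxcl16, -1.19 for Csf1, 0.96 for Il33, 0.86 for Il18, -0.98 for Icam1, 0.38 for H2-K1, 0.68 for H2-Q4, 0.62 for H2-T23, 3.80 for H2-Aa and -1.42 for H2-Ab1. Among interferon-stimulated and stress genes it was 2.76 for Gbp3, 0.52 for Rtp4, 0.31 for Ddx58, 1.69 for Iigp1, 4.14 for Ifit1, 6.34 for Usp18, 0.43 for Ripk2, -1.87 for Mt2, -0.33 for Gpx4, 1.15 for Sod3, -0.46 for Bmf, 0.45 for Plk2, 0.56 for Cdkn1a, -1.77 for Mki67, 1.20 for Fos, 2.02 for Fosb and 0.74 for Egr1. Among matrix, ion transport and identity genes it was 0.79 for Otog, -0.60 for Tecta, -0.94 for Otop1, 0.56 for Col11a2, 0.68 for Col4a4, 1.19 for Fbln2, 0.61 for Igfbp5, 0.87 for Igf1, 0.33 for Mmp11, 0.77 for Kcnj16, -0.87 for Slc12a2, 0.40 for Notch3 and 1.11 for Hes1. Among metabolic, neural and other genes it was -1.16 for Elovl6, 0.51 for Srebf1, 1.62 for Hpca, 2.39 for Bcan, 3.16 for Lypd1, 0.31 for Flrt1, -3.59 for Camkv, -0.63 for Sema3b, 0.42 for Map1b, 0.96 for D17H6S56E-5, -0.44 for Sqle, -0.34 for Sc5d, -0.39 for Gapdh, -0.65 for Eno1, 0.84 for Dkk3, 0.83 for S100b, -0.68 for Kit and 0.78 for Cdkn2b.

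The calls of these differences did not all hold when 1 of the 12 libraries was left out. The differences of Bmf, Csf1, Cxcl16, Ddx58, Flrt1, H2-Aa, Hpca, Icam1, Igf1, Ikbke, Il18, Kit, Lypd1, Map1b, Mmp11, Nfkb2, Nfkbia, Notch3, Ripk2, Rtp4, S100b and Tnfaip3 lost the call in at least 1 case, and those of the other 45 genes named here kept it in each of the 12 cases.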

How the results depend on the processing

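The counts of genes for TNF against control, 3706 higher and 3840 lower, stayed within 1.5 times under 5 alternatives: 3660 and 3874 with DESeq2 size factors, 3922 and 3483 without a count filter, 3655 and 3871 with the DESeq2 Wald test, 4054 and 3371 with limma-trend on log2(FPKM + 1), and 3985 and 3720 with the TNF and control libraries alone. With 1 library left out at a time they were 3233 to 3745 higher and 3294 to 3414 lower. A minimum fold of 1.5 (glmTreat) left 713 higher and 646 lower genes, 795 and 535 for the TNF effect with the knockdown, 79 and 33 for the difference of the effects, and 149 higher and 41 lower members of the gene lists, against 320 and 138 in the fit as reported; its construction tests for a larger change. The counts of the difference ranged from 637 to 1179 for more positive and from 432 to 1158 for more negative effects with 1 library left out. Replicate numbers did not pair the TNF and control libraries (correlations of deviations between same-numbered libraries of -0.02, 0.0097 and -0.035). Between same-numbered control and knockdown libraries the correlations were 0.29, 0.034 and 0.26. They were -0.26 for control replicate 1 with knockdown replicate 3 and -0.27 for control replicate 3 with knockdown replicate 1. A fit with the replicate block called 3621 genes higher and 3772 lower with TNF. In that fit the difference of the effects passed for 1086 genes with a more positive and 655 with a more negative effect. The log2 fold change took the other sign without TNF replicate 1 for Igf2 (-1.68), Igfbp7 (-1.21), Col1a1 (-1.98) and Col3a1 (-1.63), and by limma-trend for Col1a1 (-0.25) and Col3a1 (-0.26); by limma-trend the difference of the effects did so for Bcan (-0.068), Flrt1 (-0.0014) and Notch3 (-0.028). The range over the libraries left out was -1.68 to 1.45 for Igf2, -1.21 to 1.42 for Igfbp7, -1.98 to 1.12 for Col1a1 and -1.63 to 0.96 for Col3a1. Over 13 alternatives for 220 genes, 2731 of 2854 values kept direction and call, 101 lost the call and 16 gained it. The number of hair cell genes lower with TNF was 10 in the fit of the TNF and control libraries alone. The cause of these changes was not tested. With 3 libraries per group, 35286989 to 36435451 counts in each TNF and control library and 8 residual degrees of freedom, changes under 1.5-fold and transcripts near 0 counts are the least certain.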

Other observations

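A few abundant genes outside the lists changed more than most list members; they were chosen after their values were seen. Epas1, which encodes the hypoxia-inducible factor HIF-2 alpha, had 632, 999.8 and 907 CPM in TNF organoids, against 35.5, 37.5 and 34.3 CPM in control organoids (log2 fold change 4.56, SE 0.17, adjusted p = 1.04e-08). D17H6S56E-5, a gene near the MHC locus, had 3792, 3739.6 and 2992 CPM in TNF organoids, against 251, 253 and 253 CPM in control organoids (log2 fold change 3.80, SE 0.12, adjusted p = 4.05e-11). Both were higher in every TNF library than in any control library. Sema3b, a secreted semaphorin, stood at 399 ± 31.7 CPM with TNF and 24.4 ± 2.33 CPM in control (log2 fold change 4.03, SE 0.08, adjusted p = 4.01e-16). Map1b, a microtubule-binding protein, went the other way, with 421, 459.7 and 452 CPM in TNF organoids, against 1589.5, 1644 and 1698 CPM in control organoids (log2 fold change -1.89, SE 0.07, adjusted p = 3e-13).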
